A study of Mus musculus with 9 samples.

Results

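The genes described here are those of oxidative phosphorylation, the mitochondrial process that makes ATP, in E14 mouse embryonic stem cells. They were chosen by symbol from the deposited count table: symbols starting with mt-Nd, mt-Co, mt-Cyt, mt-Atp, Nduf, Uqcr, Atp5 or Cox4 to Cox8, together with Sdha to Sdhd and Cycs, with pseudogene symbols dropped. The rule found 106 of the 16636 genes in the table, of which 13 are encoded in mitochondrial DNA and 93 in the nucleus. The culture was kept naive with inhibitors of MEK and GSK3 plus LIF (2i/LIF). The 3 groups had 3 libraries each: wild-type cells with no treatment (untreated), cells given a luciferase control siRNA for 48 hours (siLuc), and cells given an siRNA to Stag3 for 48 hours (siStag3), which encodes a cohesin subunit best known from meiosis. Both siRNA groups shared the transfection reagent and a second transfection a day after seeding. The labels name no mock transfection for the untreated cells, so siRNA and reagent cannot be told apart in a comparison with them. All groups were of the single line E14.

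Oxidative phosphorylation passes electrons from NADH and succinate along complexes I to IV, with cytochrome c between complexes III and IV, and complex V uses the resulting proton gradient to make ATP. Complexes I, III, IV and V hold subunits from both genomes, while complex II is wholly nuclear encoded. The mitochondrial subunits are transcribed inside the organelle as long transcripts that are cut into mRNAs, mostly at the tRNAs between genes. Each nuclear subunit has its own promoter and is imported as a protein. Naive embryonic stem cells are known to use both respiration and glycolysis.

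Total counts ran from 29332436 to 44527534 per library, where 3 counts, taken as the detection floor, equal 0.0674 to 0.102 CPM (counts relative to the library total, scaled by TMM factors elsewhere), which covers counting error only. The columns are numbered by set (1 or 3) and by experiment (1, 3 or 5), terms that the labels do not explain. Each group had 2 libraries of Set 1 and 1 of Set 3, and the Set 3 library of siLuc is numbered experiment 1, those of the other groups experiment 5. Differences between groups were therefore fitted with a term for the set, and the fit without it is given beside each count. Stag3 stood at 13.5, 15.2 and 15.6 CPM in siStag3, below the 22.5, 23.4 and 26.7 CPM of siLuc and the 24.1, 24.3 and 28.6 CPM of untreated cells. Its log2 difference between siStag3 and siLuc was -0.71 (SE 0.07, edgeR adjusted p = 0.00205). The 7 naive markers checked (Pou5f1, Nanog, Sox2, Esrrb, Zfp42, Klf4 and Tfcp2l1) summed to 4372 to 4812 CPM, and none passed the test in any comparison. Markers of primitive endoderm, mesoderm, neural cells and fibroblasts summed to at most 6.24 CPM per list. Among these, T was lower in siStag3 than in untreated cells (log2 difference -1.06, edgeR adjusted p = 0.0294), and Pax6 rose from untreated to siLuc cells (log2 difference 0.59, edgeR adjusted p = 0.0316). Their part in the results was not tested.

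The mitochondrially encoded mRNAs were far more abundant than the nuclear ones. The 13 mitochondrial genes took 3.48% to 6.78% of all counts of a library, and the 93 nuclear genes took 1.17% to 1.41%. On the scale of mean CPM per kilobase of transcript, the mitochondrial genes had a median level of 3307 and the 91 nuclear genes with enough counts to be tested had a median level of 87.4. The subunit mRNA with the highest level was mt-Co1, the catalytic subunit of complex IV, at 13460 CPM per kb. The lowest of the 13 was mt-Nd6, the only member read from the other DNA strand, at 523 CPM per kb. Levels are counts after capture of mRNA by a kit, and how fully each mRNA was captured was not tested. The ATP synthase gene mt-Atp8 (8375 CPM per kb), mt-Nd1 of complex I (6425) and mt-Cytb of complex III (5873) came next after mt-Co1. Their group means lay within a narrow span of each other in untreated cells, at 5124, 5135 and 5129 CPM per kb, so their order is not resolved there.

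Among the nuclear members, Atp5b, the catalytic beta subunit of complex V, had the highest level, at 1042 CPM per kb. In complex I the highest was the accessory subunit Ndufb8 (159 CPM per kb) and the lowest the assembly factor Ndufaf3 (7.05). In complex II the membrane anchor Sdhd (99.9 CPM per kb) was highest and the other anchor Sdhc (33.4) lowest, a comparison that depends on the length of 3171 bases taken for Sdhc. Uqcrh (276) and Uqcrq (67.1) bounded complex III, and Cox7c (423) and Cox7b2 (14.4) bounded complex IV, all in CPM per kb. The lowest tested complex V gene was Atp5g2, which encodes the rotor subunit c, at 9.90 CPM per kb. Cycs, which encodes cytochrome c, stood at 18.6 CPM per kb with a transcript of 3123 bases.

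Several complex IV subunits come in isoforms that differ between tissues, and the form known from most tissues was the more abundant in each group of isoforms examined. Cox6b1 stood at 372 CPM per kb and the testis form Cox6b2 at 53.4, a ratio of 6.96. Cox7a2 (201 CPM per kb) and Cox7a2l (140) exceeded the heart and muscle form Cox7a1 (24.5). Cox7b stood at 150 CPM per kb and Cox7b2 at 14.4. Cox5a and Cox5b, which are different subunits despite their names, stood at 393 and 164 CPM per kb, and Cox4i1 and Cox6a1 at 377 and 281. Cox8a reached 297 CPM per kb, whereas Cox8c had 0 to 3 counts per library, at or under the floor. Ndufa4, now counted as a complex IV subunit, stood at 263 CPM per kb, and its paralog Ndufa4l2, known as a hypoxia-induced gene, had 2 to 13 counts per library. Cox8c and Ndufa4l2 were the only members that did not pass the filter on low counts, which left 104 of 106. Cox4i2, Cox6a2 and Cox8b, which the symbol rule covers, were not among the counted genes, so Cox4i1 and Cox6a1 could not be compared with them.

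Transfection with the control siRNA was examined by comparing siLuc with untreated cells. All 13 mitochondrial genes were higher in siLuc, and 5 of them passed the test. These were mt-Nd4, mt-Nd5 and mt-Nd4l of the proton-pumping arm of complex I, mt-Co1 of complex IV and mt-Cytb of complex III. The median log2 difference was 0.64 over the 13 mitochondrial members, -0.01 over the 91 nuclear members and -0.002 over all 14246 genes tested. In this comparison 4.20% of all genes passed (1.65% higher and 2.55% lower), at an edgeR adjusted p under 0.05, and 9 of 104 members did. Without the set term 0 members passed in edgeR, beside 0.00702% of all genes, with 12 members at an unadjusted p under 0.05, beside 8.56% of all genes. With the set term, DESeq2 called 20 members, beside 9.32% of all genes.

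The catalytic subunit mRNA mt-Co1 was measured at 18180, 19600 and 14790 CPM in untreated cells and at 24860, 22200 and 20480 CPM in siLuc. The siLuc libraries were all above the untreated ones, and in both groups the Set 3 library was lowest. The log2 difference was 0.37 (SE 0.07, edgeR adjusted p = 0.0110). The complex I subunit mt-Nd1 was at 4868, 6096 and 3778 CPM in untreated cells and at 7963, 6813 and 6070 CPM in siLuc. The lowest siLuc library lay just under the highest untreated one, and the log2 difference of 0.52 (SE 0.12, edgeR adjusted p = 0.0507) did not pass. For mt-Nd5, another membrane subunit of complex I, untreated cells gave 2567, 2531 and 1629 CPM and siLuc 3695, 3514 and 2705 CPM. Its groups did not overlap, and its log2 difference of 0.58 had the smallest p of the 13 (SE 0.07, edgeR adjusted p = 0.00077).

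By the same edgeR test, the 3 other mitochondrial genes called were mt-Nd4 (log2 difference 0.67, adjusted p = 0.0312), its overlapping neighbour mt-Nd4l (0.49, adjusted p = 0.00125) and mt-Cytb (0.31, adjusted p = 0.0237). The CPM of siLuc lay wholly above those of untreated cells for 8 of the 13 mitochondrial genes. Among the genes called, these were mt-Nd4, mt-Nd5 and mt-Co1, while the groups overlapped for mt-Nd4l and mt-Cytb. The rest were mt-Nd3, mt-Co2, mt-Co3, mt-Atp6 and mt-Atp8, which did not pass and which also varied between untreated libraries, as given below. Groups did not overlap for 12 of the 91 nuclear members (2 above, 10 below). Among all 14246 genes tested they did not overlap for 19.9% (1366 above, 1465 below). Between libraries of the same set and experiment number, all 13 mitochondrial genes were higher in siLuc than in untreated cells both in Set 1 experiment 1 (1.26-fold to 3.55-fold) and in Set 1 experiment 3 (1.12-fold to 1.39-fold). They were also higher in Set 3, where the experiment numbers differ (1.32-fold to 4.39-fold). Of the 91 nuclear members, 63, 19 and 22 were higher in siLuc in these pairs, in the same order. The count of 9 members fell to 4 without the untreated library of Set 1 experiment 1, to 4 without the untreated library of Set 3, to 3 without the siLuc library of Set 1 experiment 1 and to 5 without the siLuc library of Set 3. Of all genes 1.22%, 0.771%, 1.01% and 0.880% passed in these fits, and the mitochondrial genes called numbered 3, 2, 2 and 3. The calls of mt-Nd5 and mt-Nd4l were lost with none of the 6 libraries left out, those of mt-Co1 and mt-Nd4 with 3 and that of mt-Cytb with 5.

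**Figure D1:**
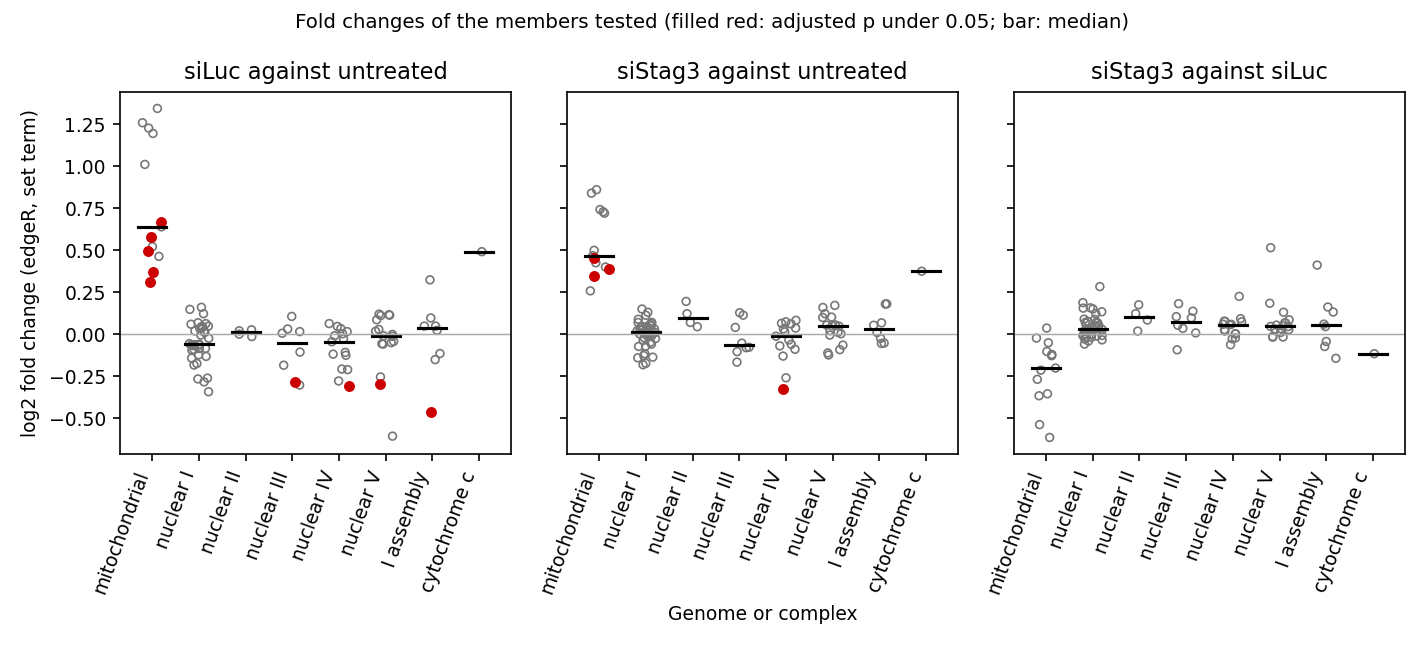
The vertical axis is the log2 fold change of each of 104 genes in 3 comparisons, and the horizontal axis groups them into the 13 mitochondrial genes and the nuclear subunits of complexes I to V, complex I assembly factors and cytochrome c (Ndufa4 is drawn with complex IV). Bars are medians and filled red points passed the test. The mitochondrial median is 0.64 in siLuc against untreated, 0.47 in siStag3 against untreated and -0.20 in siStag3 against siLuc, while nuclear groups of more than 1 gene have medians near 0.

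The nuclear subunits mostly stayed close to their untreated level in siLuc: 75 of 91 had an absolute log2 difference under 0.2. The 4 that passed the test were all lower. The largest fall among them was in Ndufaf7, a methyltransferase needed to assemble complex I. It stood at 21.2, 20.1 and 22.1 CPM in untreated cells, at 15.8, 14.6 and 15.5 CPM in siLuc and at 19.7, 20.7 and 20.7 CPM in siStag3. The 3 siLuc libraries were thus below all 6 others, and the log2 difference from untreated cells was -0.46 (SE 0.07, edgeR adjusted p = 0.0037). Atp5g1, a gene for the rotor subunit c of complex V, was at 186, 176 and 234 CPM in untreated cells and at 160, 158 and 162 CPM in siLuc. Its log2 difference was -0.30 (SE 0.08, edgeR adjusted p = 0.0483). Uqcrq, a small subunit of complex III, fell by 0.29 (SE 0.08, edgeR adjusted p = 0.0495) on the log2 scale. Cox6b2 fell by 0.31 (SE 0.08, edgeR adjusted p = 0.0481), with untreated libraries at 30.8, 31.7 and 38.7 CPM and siLuc libraries at 23.6, 24.6 and 34.4 CPM. In Cox6b2 the groups overlapped, because both Set 3 libraries were high. The calls of Atp5g1 and Uqcrq were lost when any of the 6 libraries compared was left out and that of Cox6b2 with 5 of the 6 (all but the untreated library of Set 3), while that of Ndufaf7 was lost with none. With set and experiment as a replicate block in place of the set term, 6 members passed beside 2.23% of all genes. These were the same 5 mitochondrial genes and Ndufaf7, while Atp5g1, Uqcrq and Cox6b2 did not pass (edgeR adjusted p = 0.0736, 0.0773 and 0.0719).

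Cycs was the nuclear member with the largest positive difference in siLuc (chosen after its values were seen). It stood at 39.5, 59.7 and 41.8 CPM in untreated cells, at 66.6, 61.4 and 68.5 CPM in siLuc and at 65.3, 72.4 and 46.1 CPM in siStag3. Its log2 difference of 0.49 between siLuc and untreated cells did not pass (SE 0.18, edgeR adjusted p = 0.142). Of the 31-base words of its transcript, 28.6% also occur in Gm10053, a gene with a row of its own in the table, so reads could be split between them. The complex II genes, which have no mitochondrial counterpart, differed little: the 4 log2 differences lay between -0.01 and 0.03, and none passed.

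**Figure D2:**
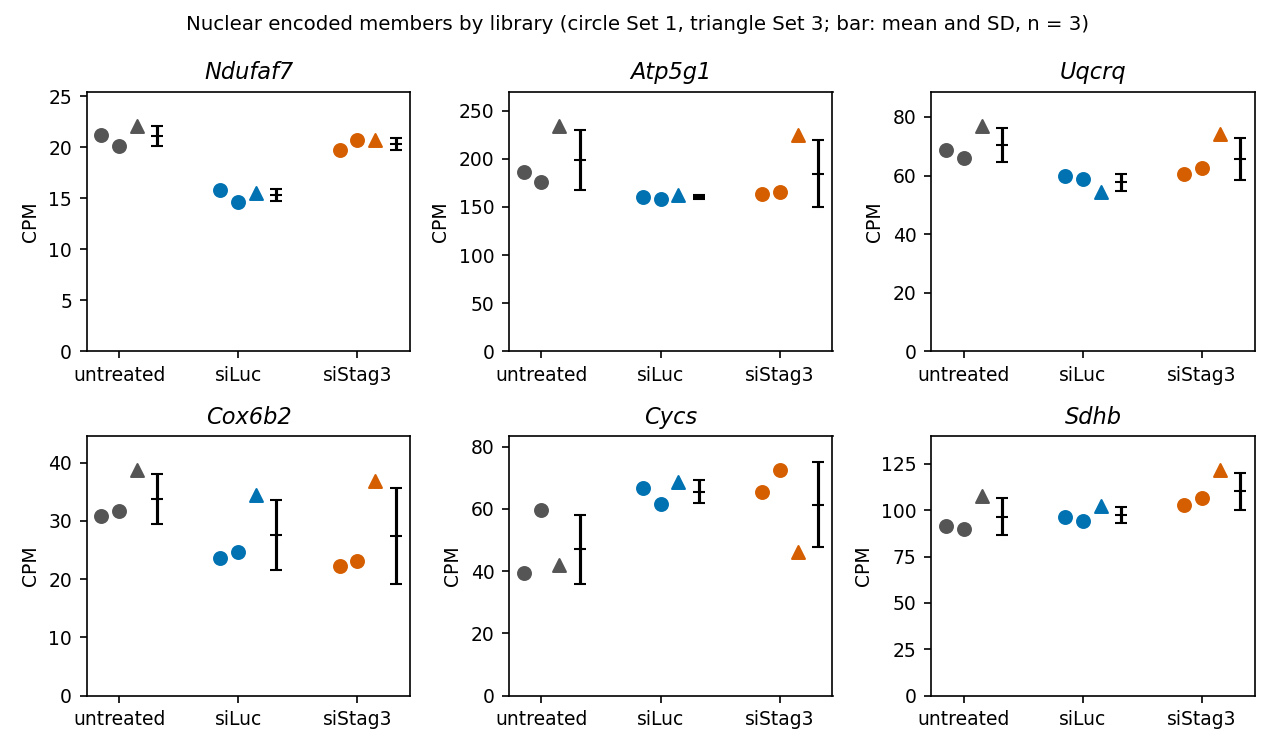
The vertical axes give CPM of 6 nuclear encoded genes and the horizontal axes the 3 groups, with circles for Set 1, triangles for Set 3 and bars for mean and SD (n = 3). Ndufaf7 in siLuc (14.6 to 15.8 CPM) lies below the other 6 libraries, and for Atp5g1, Cox6b2 and Sdhb the Set 3 libraries of untreated and siStag3 cells are the highest of their groups.

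Promoter windows of RefSeq (GRCm38.p6; 250 bases before to 50 bases after the gene start) were matched by symbol for 77 of the 93 nuclear members. The 3 motifs known from promoters of respiratory genes were searched on both strands, and none of them contains another. A gene with more than 1 window was counted if any of them held the motif. The motif of the factor NRF1 (GCGCA, any base, then GCGC) occurred in 19 of the 77 members (24.7%). It occurred in 10.5% of 11167 other genes tested and in 5.19% of all 27025 genes with a window. The motif of YY1 (AAGATG followed directly by GCGG) occurred in 6 members (7.79%), against 2.14% of other genes tested. CCGGAAGT, an ETS-type motif, occurred in 5 members (6.49%), against 8.40% of other genes tested. Sdha, the catalytic subunit of complex II, and Ndufb4, an accessory subunit of complex I, held the most NRF1 matches, with 3 each. Their log2 differences between siLuc and untreated cells were 0.03 and 0.16, and neither passed. The windows of Ndufaf7, Atp5g1 and Cox6b2 held none of the 3 motifs. The 120 bases directly before the start are shown for the 2 windows with most matches and for Ndufaf7, the nuclear member with the firmest change. They are at chr13:74350241-74350360 (minus strand), chr16:37654369-37654488 (minus strand) and chr17:78937015-78937134 (plus strand), and capitals mark the NRF1 matches.
Sdha: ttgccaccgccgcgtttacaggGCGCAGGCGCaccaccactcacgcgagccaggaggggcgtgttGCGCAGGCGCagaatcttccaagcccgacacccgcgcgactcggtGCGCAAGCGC
Ndufb4: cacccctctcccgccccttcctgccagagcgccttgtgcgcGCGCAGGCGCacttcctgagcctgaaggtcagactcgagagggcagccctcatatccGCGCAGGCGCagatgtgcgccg
Ndufaf7: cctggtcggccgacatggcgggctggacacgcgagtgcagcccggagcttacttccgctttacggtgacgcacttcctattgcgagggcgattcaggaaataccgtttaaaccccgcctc
A match is a description of letters only, and binding was not measured.

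The siStag3 cells were next compared with untreated cells, a comparison that shares its untreated libraries with the one above and holds both the transfection and the Stag3 siRNA. Again all 13 mitochondrial genes were higher, with a median log2 difference of 0.47 against 0.02 for the nuclear members and -0.01 for all genes. In this comparison 2.53% of all genes passed (1.07% higher and 1.46% lower), and 4 of 104 members did. The mitochondrial ones were mt-Nd5 (log2 difference 0.45, SE 0.07, edgeR adjusted p = 0.00331), mt-Nd4l (0.39, SE 0.06, edgeR adjusted p = 0.00525) and mt-Co1 (0.35, SE 0.07, edgeR adjusted p = 0.0145). The nuclear one was Cox6b2, which fell by 0.33 (SE 0.08, edgeR adjusted p = 0.0454). mt-Nd1 was at 7647, 7784 and 4320 CPM in siStag3, so that its Set 3 library lay among the untreated libraries, and its log2 difference of 0.40 did not pass (SE 0.12, edgeR adjusted p = 0.142). mt-Co1 was at 23780, 25250 and 17990 CPM, again with a low Set 3 library.

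The CPM of siStag3 and untreated cells did not overlap for 1 mitochondrial member, mt-Nd6, and for 5 of 91 nuclear members, beside 10.0% of all genes. Between libraries of the same set and experiment number, all 13 mitochondrial genes were higher in siStag3 than in untreated cells. The ranges were 1.25-fold to 3.62-fold in Set 1 experiment 1, 1.24-fold to 1.60-fold in Set 1 experiment 3 and 1.02-fold to 1.51-fold in Set 3 experiment 5. Of the 91 nuclear members, 60, 49 and 43 were higher in siStag3 in these pairs, in the same order. Without the set term 0 members passed in edgeR, beside 0.0140% of all genes, with 2 members at an unadjusted p under 0.05, beside 5.95% of all genes. The count of 4 moved with single libraries, and so did the share of all genes called. Without the siStag3 library of Set 3 it was 12 of 104 beside 11.0% of all genes, a share near the background. It was 1 without the siStag3 library of Set 1 experiment 1 (0.542% of all genes), 2 without that of experiment 3 (1.30%) and 2 without the untreated library of Set 3 (0.625%). With set and experiment as a replicate block the 3 mitochondrial genes passed and Cox6b2 did not (edgeR adjusted p = 0.0727), beside 1.88% of all genes. With the set term DESeq2 called 7, beside 2.91% of all genes.

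The effect of the Stag3 siRNA itself was examined by comparing siStag3 with siLuc. No member passed the edgeR test (0 of 104, beside 0.0281% of all genes). At an unadjusted p under 0.05 there were 10 of 91 nuclear members, all higher in siStag3, and no mitochondrial member. Beside them stood 1122 of all 14246 genes (7.88%) in either direction, whose split by direction was not counted. The differences of the nuclear members also varied with GC content here, as given below. Without the set term edgeR also gave 0 members and 0% of all genes, with 1 member at an unadjusted p under 0.05, beside 2.15% of all genes. With the set term DESeq2 called 1 member, Ndufaf7, beside 0.154% of all genes. The median log2 difference was -0.20 over the 13 mitochondrial members, 0.05 over the 91 nuclear members and -0.005 over all genes. The values of mt-Nd1 and mt-Co1 were -0.12 (SE 0.12) and -0.02 (SE 0.07) on the log2 scale, and they changed sign when the Set 3 libraries were left out, to 0.06 for both.

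The 3 members with the smallest p in siStag3 against siLuc were nuclear. Ndufaf7 had a log2 difference of 0.41 (SE 0.07, edgeR adjusted p = 0.0872), with siStag3 libraries at the level of untreated cells, as given above. Cox8a, a complex IV subunit, stood at 140, 144 and 155 CPM in siLuc and at 150, 159 and 208 CPM in siStag3. The groups overlapped, and the log2 difference was 0.22 (SE 0.07, edgeR adjusted p = 0.419). Sdhb, the iron-sulfur subunit of complex II, stood at 96.2, 94.2 and 102 CPM in siLuc and at 103, 107 and 122 CPM in siStag3. These groups did not overlap, and the log2 difference was 0.17 (SE 0.05, edgeR adjusted p = 0.446). The CPM of siStag3 lay wholly above those of siLuc for 8 of 91 nuclear members and for none of the 13 mitochondrial ones. No member lay wholly below. Among all 14246 genes tested, 453 lay above and 486 below, so that groups did not overlap for 6.59%.

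The balance of the genomes was measured within each library as the log2 ratio of summed mitochondrial to summed nuclear member counts, which does not depend on the scaling of libraries. It was 1.88, 2.13 and 1.30 in untreated cells, 2.50, 2.38 and 2.24 in siLuc and 2.50, 2.50 and 1.54 in siStag3, each time with the Set 3 library last. The siLuc values lay above all untreated ones, and the Set 3 libraries of untreated and siStag3 cells were the lowest of the 9. The mean was 1.77 ± 0.43 (SD, n = 3) in untreated cells, 2.37 ± 0.13 (SD, n = 3) in siLuc and 2.18 ± 0.55 (SD, n = 3) in siStag3. The difference between siLuc and untreated cells was 0.61, a 1.52-fold higher ratio, with a two-sided exact permutation p of 0.1, the smallest that 3 against 3 libraries allow, and 0.3 after adjustment over the 3 comparisons. It was 0.44 within Set 1 and 0.95 within Set 3. Between siStag3 and untreated cells the difference was 0.41 (exact permutation p = 0.3, adjusted 0.45), with 0.49 within Set 1 and 0.24 within Set 3.

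Between siStag3 and siLuc the log2 ratio differed by -0.20 (exact permutation p = 0.8, adjusted 0.8), and the sets had opposite signs, 0.06 in Set 1 and -0.70 in Set 3. Without the siStag3 library of Set 3 the difference was 0.12. By complex, the ratio in siLuc exceeded that in untreated cells by 0.62 in complex I, 0.36 in complex III, 0.64 in complex IV and 1.23 in complex V on the log2 scale. The exact permutation p was 0.1, 0.3, 0.1 and 0.1, and over the 12 tests by complex none was below 0.4 after adjustment. In bulk RNA, fewer cells of a kind and less RNA per cell cannot be told apart.

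**Figure D3:**
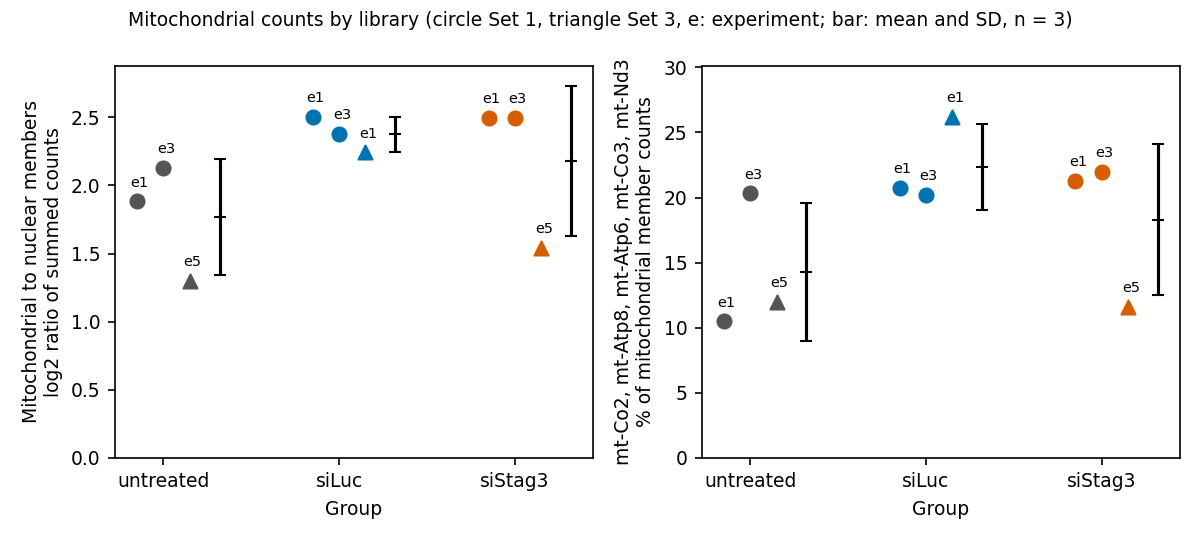
The left vertical axis is the log2 ratio of summed mitochondrial to nuclear member counts, and the right one the percentage of mitochondrial member counts in 5 neighbouring genes, by group on the horizontal axes, with circles for Set 1, triangles for Set 3 and bars for mean and SD (n = 3). The ratio is lowest in the Set 3 libraries of untreated (1.30) and siStag3 (1.54) cells, and the share is 10.5% to 12% in 3 libraries and 20.2% to 26.2% in the other 6.

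The members also differed between the sets. Between Set 3 and Set 1 libraries, with the groups in the same fit, 48 nuclear members were higher and 3 lower among the 91 tested, and 7 of the 13 mitochondrial members were lower, at an edgeR adjusted p under 0.05 that 42.7% of all genes passed (21.4% higher, 21.2% lower). The median log2 difference was 0.17 over nuclear members and -0.55 over mitochondrial ones. mt-Nd6, read from the other strand, was the only mitochondrial member with a positive value (0.24, not past the threshold). In the nuclear part of complex IV 11 of 14 genes were higher, and in complex V 11 of 17.

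Within the mitochondrial genome, 5 neighbouring genes varied more between libraries than the other 8. They are mt-Co2, mt-Atp8, mt-Atp6, mt-Co3 and mt-Nd3, the fourth to eighth of the 13 genes in annotated order, and they encode subunits of complexes IV, V and I. This run of genes was noticed in the values, so the following is a description with no test. Over the 9 libraries the highest CPM was 3.43 to 5.65 times the lowest for these 5 and 1.71 to 2.60 times for the other 8. mt-Co3, a core subunit of complex IV, was at 1755, 4425 and 1411 CPM in untreated cells, at 5830, 5028 and 6199 CPM in siLuc and at 5639, 6129 and 1508 CPM in siStag3. The low libraries were those of untreated Set 1 experiment 1, untreated Set 3 and siStag3 Set 3. mt-Co2, which carries the copper site that accepts electrons from cytochrome c, was at 900, 2225 and 986 CPM in untreated cells, at 2917, 2592 and 3820 CPM in siLuc and at 2966, 2750 and 1199 CPM in siStag3, with the same 3 libraries low.

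The 5 genes took 10.5%, 20.3% and 12% of the mitochondrial member counts in untreated cells, 20.7%, 20.2% and 26.2% in siLuc and 21.3%, 22% and 11.6% in siStag3. Among the untreated libraries of Set 1, that of experiment 3 was at 2.01 to 2.58 times that of experiment 1 in these 5 genes and at 0.938 to 1.34 times in the other 8, a contrast between libraries of the same group. In Set 1 experiment 1, siLuc exceeded untreated cells 2.34-fold to 3.55-fold in the 5 genes and 1.26-fold to 1.70-fold in the others. In Set 1 experiment 3 the ranges were 1.14-fold to 1.26-fold and 1.12-fold to 1.39-fold, so that the 5 genes did not stand apart in that pair. In Set 3, siStag3 was at 0.243 to 0.374 times siLuc in the 5 genes and at 0.604 to 0.878 times in the other 8. With this spread none of the 5 passed between siLuc and untreated cells, although they had the largest log2 differences of the 13 (1.01 to 1.34, edgeR adjusted p 0.161 to 0.243). Without these 5 genes, which were picked from the same values, the log2 ratio of the genomes was 1.805 to 2.17 in siLuc. It was 1.11 to 1.800 in untreated cells. The groups were thus barely apart, with siLuc Set 3 at 1.805 and untreated Set 1 experiment 3 at 1.800.

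**Figure D4:**
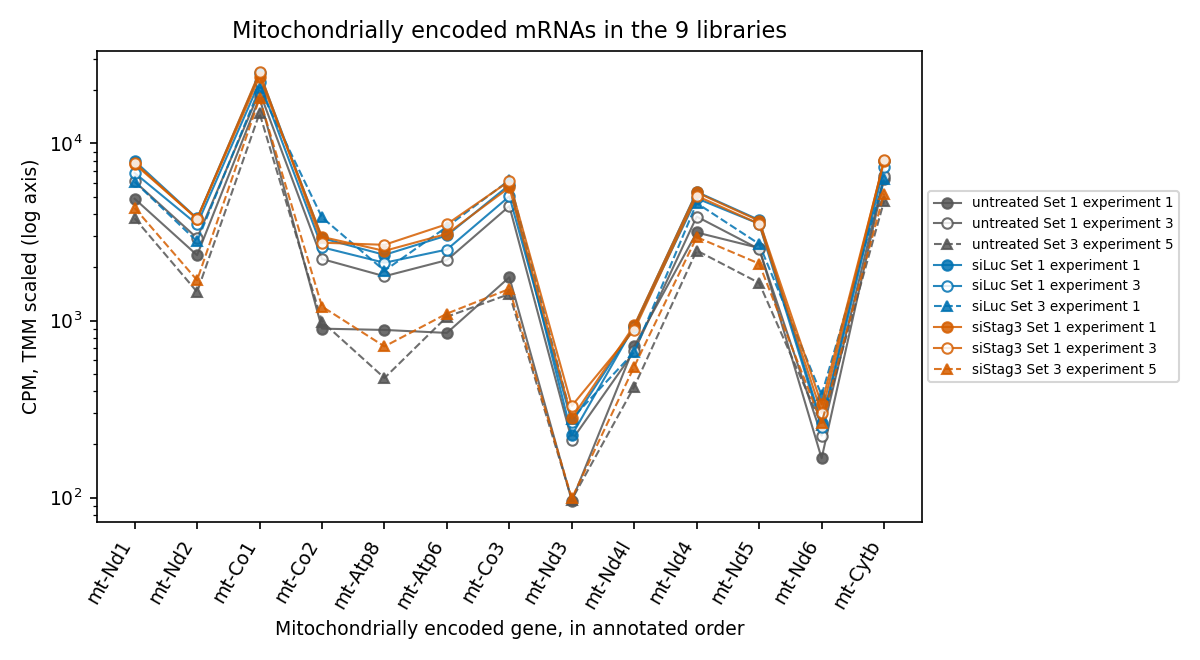
The vertical axis is CPM on a log axis and the horizontal axis lists the 13 mitochondrially encoded genes in annotated order, with 1 line per library (solid Set 1, dashed Set 3, open circles experiment 3). From mt-Co2 to mt-Nd3 the libraries part into 3 low lines (untreated Set 1 experiment 1, untreated Set 3 and siStag3 Set 3) and 6 high ones, with mt-Co3 at 1411 to 1755 CPM in the low and 4425 to 6199 CPM in the high ones.

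Nuclear copies of mitochondrial DNA bear on how these genes can be counted. In the GENCODE M21 transcripts, 7 of the 13 mitochondrial genes share at least 50% of their 31-base words with another annotated gene. Over the length of the copy, mt-Co2 is identical to Gm28661 (681 bases), mt-Atp6 to Gm10925 (678 bases) and mt-Co3 to Gm28437 (783 bases). mt-Nd3 differs from Gm28438 at a single base of 345, T3C (positions from 1 at the 5′ end of the transcript, the gene's base first), shown here in the first 60 bases with that base in capitals.
mt-Nd3: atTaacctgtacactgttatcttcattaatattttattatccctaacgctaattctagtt
Gm28438: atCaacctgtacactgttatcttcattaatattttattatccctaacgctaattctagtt
These copies have no row in the table, and how reads shared with them were assigned is not given in the sources used here. Among the 5 variable genes the share of words found in other genes was 7.47% for mt-Atp8 and 98.1% to 100% for the other 4. Among the remaining 8 it ran from 0% in mt-Nd1 to 98.9% in mt-Nd4l, with 63.9% in mt-Co1 and 62.8% in mt-Nd4. The part of such copies in the spread of the 5 genes, and in the calls of mt-Co1, mt-Nd4 and mt-Nd4l, was not tested. The values of mt-Atp8 and mt-Atp6, and of mt-Nd4l and mt-Nd4, are uncertain as well because the genes of each pair overlap. Among nuclear members, Atp5g2, Atp5l, Atp5h, Cox7c and Uqcrb share at least 50% of their words with other genes, and their counts are uncertain too.

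The log2 differences of the nuclear members varied with base composition. The mitochondrial transcripts had a median GC content of 37.1% (31.9% to 41.1%), the nuclear members 51.0% and all genes tested 50.3%. Over the 91 nuclear members, the log2 difference between siLuc and untreated cells correlated with GC content at Pearson r = -0.65 and Spearman rho = -0.73, a description across genes of the same libraries. After each library was corrected by the median deviation found in 20 bins of GC content, these were -0.02 and 0.03. The bins were taken over all genes tested, the members included, so the correction removes such a trend by construction. With that correction and the set term, the median log2 difference of the 13 mitochondrial genes was 0.38 in place of 0.64, all 13 remained higher, and 10 members passed (6 higher, 4 lower) beside 6.98% of all genes (3.15% higher, 3.83% lower). These were the mitochondrial mt-Nd1, mt-Nd2, mt-Nd4, mt-Nd4l, mt-Nd5 and mt-Co1 and the nuclear Ndufb11b, Ndufaf7, Uqcrq and Atp5g1. mt-Nd1 passed at 0.27 (edgeR adjusted p = 0.0031), whereas mt-Cytb at 0.06 did not (edgeR adjusted p = 0.635) and Cox6b2 at -0.20 did not (edgeR adjusted p = 0.0714).

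The corrected value of mt-Co1 was 0.17 and its call rested on how GC content was defined. It had an edgeR adjusted p of 0.0494 with GC content taken from the principal transcripts and of 0.203 with the median over all protein-coding transcripts, the definition used first and replaced after its results were seen because its lengths were truncated. In siStag3 against untreated cells the uncorrected differences of the 91 nuclear members correlated with GC content at Pearson r = -0.56 and Spearman rho = -0.58. The corrected mitochondrial median there was 0.34 and 9 members passed (8 higher, 1 lower) beside 6.85% of all genes (3.31% higher, 3.54% lower). In siStag3 against siLuc the uncorrected correlations over the same nuclear members were Pearson r = 0.43 and Spearman rho = 0.50. This comparison shares its siLuc libraries with siLuc against untreated cells, so its correlations are not independent of those given for that comparison. The corrected mitochondrial median there was -0.08 and 1 member passed, higher, beside 0.484% of all genes (0.260% higher). That member was Ndufaf7, at 0.44 (edgeR adjusted p = 0.00134).

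**Figure D5:**
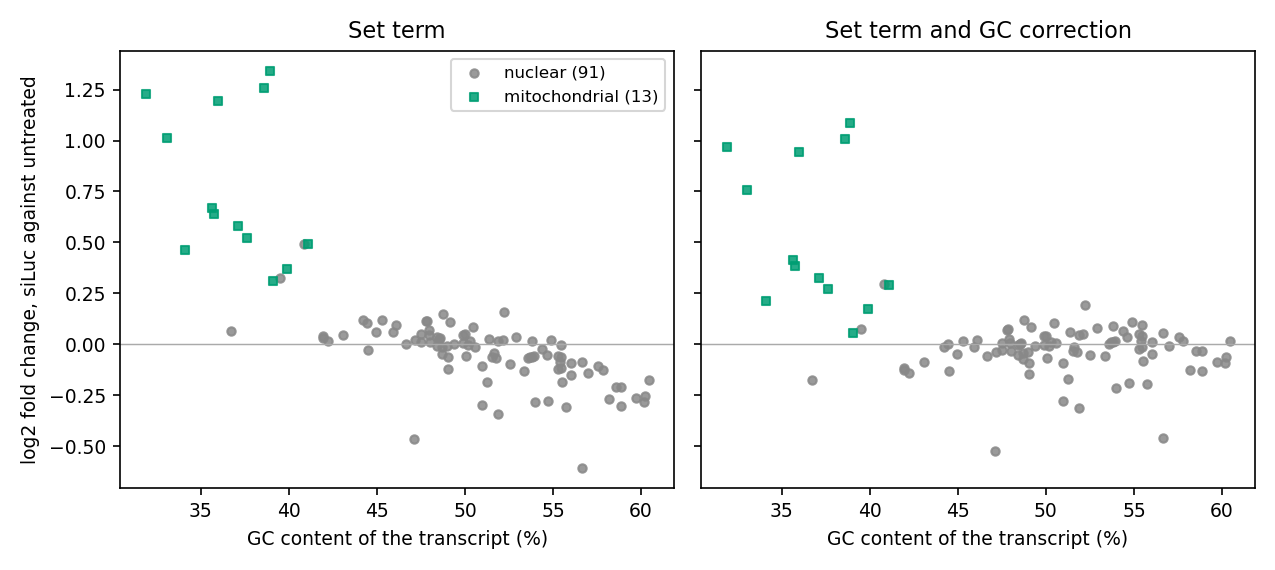
The vertical axes give the log2 fold change of siLuc against untreated cells with the set term (left) and with an added GC correction (right), and the horizontal axes the GC content of the transcript in percent, for 91 nuclear and 13 mitochondrial genes. The nuclear genes slope down with GC content on the left (r = -0.65) and not on the right (r = -0.02), where the correction removes such a slope by construction. The mitochondrial genes are above 0 in both, with medians of 0.64 and 0.38.

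Genes that serve the respiratory chain outside the symbol rule were read from 3 lists. Of 38 genes for mitochondrial gene expression, such as the transcription factor Tfam and the polymerase Polrmt, 37 were tested. None of them passed in siLuc against untreated, siStag3 against untreated or siStag3 against siLuc. Of all genes 4.20%, 2.53% and 0.0281% passed in these 3 comparisons, and 0 of 37 is near these shares. The medians were 0.07, 0.02 and -0.02 on the log2 scale, in the same order. Of 44 assembly factors and electron carriers, 43 were tested, and none passed either (medians -0.01, 0.04 and 0.02). Of 31 genes that feed or bypass the chain, 2 rose in siLuc and in siStag3, each against untreated cells. Beside them, 1.65% and 1.07% of all genes passed as higher. None of the 31 passed between siStag3 and siLuc. Pdk1, a kinase that switches off pyruvate dehydrogenase, was at 31.6, 35.2 and 26.1 CPM in untreated cells. It was at 50.7, 49.1 and 46.7 CPM in siLuc and at 49.8, 47.4 and 39.1 CPM in siStag3. Both siRNA groups lay wholly above the untreated one, with log2 differences of 0.67 and 0.56 (edgeR adjusted p = 0.000393 and 0.00112). The related kinases Pdk2, Pdk3 and Pdk4 did not pass, with log2 differences of -0.245, 0.146 and -0.034 between siLuc and untreated cells. Ldha, which turns pyruvate into lactate, was at 215, 211 and 257 CPM in untreated cells, at 316, 304 and 337 CPM in siLuc and at 317, 323 and 368 CPM in siStag3, with log2 differences of 0.49 and 0.57 (edgeR adjusted p = 0.000393 and 9.955e-05). Without the set term neither gene passed in either comparison.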

How the data were processed

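RNA was sequenced from 9 libraries in 3 groups of 3 (untreated, siLuc, siStag3), made with a kit that captures mRNA, per the labels' protocols. The authors deposited 1 table of raw counts per gene, and the submitters' processing notes name FastQC, Salmon, DESeq2 and the build GRCm39. Values are whole numbers, so any estimated counts had been rounded, and every gene has a sum of at least 9 counts. The strand setting, annotation release and treatment of multi-mapping reads are not given in the sources used here. Column names give group, set and experiment, not the replicate numbers of the labels, so a column was assigned to a group only. The series' design text calls the replicates biological, and p-values measure the spread between these libraries.

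The members, lists, tests and the set term were chosen with earlier results of these data known. edgeR 4.0.16 in R 4.3.3 (TMM, filterByExpr, robust quasi-likelihood F test) was fitted on all 9 libraries with terms for group and set. It tested 14246 genes, with two-sided p-values adjusted over all of them by Benjamini-Hochberg and a threshold of 0.05. SE was derived from the log2 difference and F. CPM are TMM scaled. The biological coefficient of variation was 7.62% with the set term and 14.6% without. The tests were tried on simulated data. Length, GC content and 31-base words came from GENCODE M21 transcripts (GRCm38), using principal transcripts. That choice replaced the median of all protein-coding transcripts after results had been seen. No coordinates are given for genes, since the builds differ, other than RefSeq promoter windows.

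Named members are mt-Nd1 and mt-Co1, up to 5 rises and 5 falls per comparison among members past the threshold at 1 log2 CPM or more (the 3 smallest p where none passed), the highest and lowest nuclear level per kb in each complex, and isoform groups. Sums for the ratio of genomes were compared by two-sided exact permutation. Alternatives were other normalizations (DESeq2 size factors, total count, TMM on nuclear genes), filters, DESeq2 1.42.0, GC correction, the 6 libraries compared, Set 1 alone, set and experiment as a replicate block, and leaving out each library. All 9 libraries were kept in the results.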

Additional observations from a re-analysis of the deposited data

How the results depend on the processing

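The count of members past the threshold moved between settings, as did the share of all genes called. Without the set term the count was 0 in all 3 comparisons (0% to 0.0140% of all genes). In siLuc against untreated cells, where 9 members passed, it was 14 with scaling by total count only (5.34% of all genes, with their median at -0.05 on the log2 scale), 20 with DESeq2 (9.32%) and 20 with only the 6 libraries compared (12.8%), and 3 to 8 with each library left out (0.771% to 2.69%). In siStag3 against untreated cells, where 4 passed, it was 7 with DESeq2 (2.91% of all genes), 9 with GC correction (6.85%), 9 with GC content over all protein-coding transcripts (6.46%, added after the data were seen), 11 with Set 1 alone (6.62%) and 1 to 12 with each library left out (0.542% to 11.0%). In siStag3 against siLuc, where 0 passed, it was 1 with DESeq2 (0.154%) and 1 with either GC correction (0.386% and 0.484%), and 0 with each library left out. The log2 ratio of the genomes between siLuc and untreated cells was 0.96 with the median of log2 CPM in place of sums, and 0.37 to 0.78 with each library left out. Between siStag3 and untreated cells it was 0.17 to 0.73 with each library left out. Between siStag3 and siLuc it ran from -0.36 to 0.12 with each library left out and was 0.0555 with Set 1 alone, a reversal whose cause was not tested. In the same comparison mt-Nd1, at -0.12, reversed to 0.0016 with GC correction and 0.0615 with Set 1 alone, and ran from -0.226 to 0.0215 with each library left out. There mt-Co1, at -0.02, reversed to 0.0706 with GC correction, 0.0904 with GC content over all protein-coding transcripts and 0.0581 with Set 1 alone, and ran from -0.0880 to 0.0440 with each library left out. Of 360 values of single named members under alternatives, 269 kept direction and side of the threshold, 64 lost the call, 17 gained it and 10 reversed. With set and experiment from the column names as a replicate block (added after the data were seen) the counts were 6, 3 and 0 (2.23%, 1.88% and 0.0281% of all genes) in the order siLuc against untreated, siStag3 against untreated and siStag3 against siLuc. Within Set 1, the log2 CPM of experiment 3 minus experiment 1 correlated between these groups at Pearson r = -0.104, -0.00213 and -0.0573 across 14246 genes, which are not independent, so libraries of the same experiment number did not deviate together. A block by the labels' replicate numbers was not run, since no column carries them.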

Other observations

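The mitochondrial share of the counts was 6.73% and 6.60% in the siLuc and siStag3 libraries of Set 1 experiment 1, 6.08% and 6.78% in those of experiment 3, and 5.98% and 4.10% in those of Set 3. The last pair differs in experiment number, 1 for siLuc and 5 for siStag3, so in Set 3 the siRNA and the experiment cannot be told apart.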
